A study of Saccharomyces cerevisiae with 10 samples.

Results

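Naive cells are the prion-free state in a study of the yeast prion [BIG+], and 5 of its 10 RNA libraries came from them. The 5 naive libraries were taken by their prion label alone, so no measured value entered the choice, and they were not compared with the other libraries. All 5 were Saccharomyces cerevisiae of the BY4741 background, labelled wild type and without a prion. Each came from an independent colony, was started in 5 mL of YPD, a rich medium with glucose, and was grown in 700 mL at 30 °C to an optical density of 1.0. Total RNA was sequenced after depletion of rRNA. Levels are given as deposited, in TPM, which scales reads per length to the same total in every library, as the mean ± SD over the 5 cultures unless every value is listed. TPM keeps no sequencing depth, so depth is unknown and no counting error can be given. The labels name no day or batch.

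Budding yeast with plentiful glucose ferments it to ethanol and invests most of its transcription in ribosomes and glycolytic enzymes. Programs for other carbon sources, for the opposite mating type and for meiosis are kept repressed in such haploid cells. Heat shock factor Hsf1 and the paired activators Msn2 and Msn4 drive chaperone and general stress genes when cells meet heat, damage or falling nutrients.

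The table listed 7032 features, of which 2395 had a mean of at least 10 TPM in naive cells, 2339 of them mRNAs. Of the 6596 mRNA features, 105 had a mean above 1000 TPM, 464 lay between 100 and 1000, 1770 between 10 and 100 and 3356 between 1 and 10. The median over all mRNAs was 5.45 TPM. A further 647 were above 0 with a mean of at most 1 TPM, and 254 were at 0 in every culture. The most abundant 10 mRNAs held 17.1% ± 1.29 of all mRNA TPM and the most abundant 100 held 53.7% ± 2.01, and 86 mRNAs made up 50% of it.

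The cultures were not equally alike. Over the features with a mean of at least 10 TPM, the SD of the log2 difference was 0.186 between cultures 3 and 4 and 0.281 between cultures 1 and 2, and it was largest, at 0.778, between cultures 2 and 5. Culture 5 was between 0.488 and 0.778 from every other culture. Its deposited values were also high across the table, with a median deviation of 0.37 on the log2 scale from the mean of the 5 cultures, against -0.17 to -0.02 in the others. Most gene groups are therefore compared between cultures after rescaling by the median of ratios, which divided the 5 libraries by 0.983, 0.916, 0.885, 0.962 and 1.30. Values of single genes are as deposited unless stated otherwise. Coding length moved with culture as well. After scaling, the shortest of 5 equal groups of mRNAs (168 to 471 nt) had a median log2 deviation of 0.30 in culture 2 and -0.23 in culture 5, and the longest group (1722 to 8019 nt) had -0.23 in culture 2 and 0.06 in culture 5.

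The mRNA with the highest mean was YDR524C-B, an open reading frame of 201 nt on chromosome IV (1489598 to 1489798, minus strand, R64), at 14603 ± 1215 TPM. Its 5 values were 13807, 14189, 15429, 16268 and 13320 TPM. Whether its short length affected its level was not tested. The next were enzymes of glycolysis. TDH3, glyceraldehyde-3-phosphate dehydrogenase (chromosome VII, 882812 to 883810), had 8054, 8989, 10248, 12578 and 16137 TPM. FBA1, fructose bisphosphate aldolase (chromosome XI, 326408 to 327487), had 8350, 9927, 11035, 11581 and 13776 TPM. Both were lowest in culture 1 and highest in culture 5 as deposited, and after scaling TDH3 was highest in culture 4, at 13070, and FBA1 in culture 3, at 12469.

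The other mRNAs among the first 15 belonged mainly to the same 2 systems, translation and glycolysis. The small ribosomal subunit gave RPS28A at 9543 ± 612 TPM, RPS27B at 7493 ± 2276 and RPS14A at 5427 ± 163. The large subunit gave RPL29 at 5915 ± 617, the elongation factor eEF1A gave TEF2 at 4498 ± 1248, and ASC1, a scaffold of the small subunit, had 3754 ± 326. RPS27B differed most between cultures among these, from 9808 TPM in culture 1 to 4502 in culture 5. The glycolytic members were GPM1, phosphoglycerate mutase, at 5875 ± 475 TPM, TPI1, triosephosphate isomerase, at 4626 ± 673, CDC19, pyruvate kinase, at 3862 ± 794, and ENO2, enolase, at 3803 ± 728. The remaining members were TSA1, the main cytosolic peroxiredoxin, at 3935 ± 839 and YLR154W-E, which had no entry in the reference annotation, at 5103 ± 1055. YLR154W-E shares its name stem with TAR1 (YLR154W-C, chromosome XII, 454696 to 455070), which lies within the span of a 25S rRNA feature (451786 to 455181). Whether reads of YLR154W-E came from rRNA left after depletion was not tested. ASC1 holds the small nucleolar RNA snR24 in its intron, and snR24 itself, shorter than 160 nt, was listed at 0.

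By group, 137 cytosolic ribosomal protein genes held 34.4% ± 5.47 of mRNA TPM, with a median of 817 TPM per gene. The 25 genes of glycolysis and fermentation held 12.04% ± 1.499 with a median of 1158 TPM. Translation factors (29 genes) held 4.07% ± 0.690, plasma membrane pumps and cell wall genes (25) 2.67% ± 0.361, chaperones (29) 2.00% ± 0.742, general stress genes (46) 1.37% ± 0.274 and histones (10) 1.05% ± 0.365. Organelle and turnover machines were small by this measure. Mitochondrial ribosomal protein genes (56) held 0.233% ± 0.0313, proteasome genes (33, the assembly gene RPN14 among them) 0.268% ± 0.0807 and nuclear genes of the respiratory chain (32) 0.991% ± 0.0837.

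Among 25 sets of duplicated genes, 2 hold copies listed at 0, HYP2 of HYP2 and ANB1 and both MFA1 and MFA2, and were not ranked. In 22 of the other 23 sets the copy with the higher mean was the higher one in all 5 cultures, and in 17 the ranges of the first 2 copies did not overlap. In fermentation the leading copy was far ahead. ADH1, the alcohol dehydrogenase that makes ethanol, had 2220 ± 275 TPM and was 1147 times ADH2, which consumes ethanol and had 1.94 ± 0.579. CDC19 was 506 times PYK2, PDC1 278 times PDC5, and the plasma membrane proton pump PMA1, at 1245 ± 220 TPM, was 1405 times PMA2. TDH3 was 6.34 times TDH2 and ENO2 3.28 times ENO1. RNR1, the large subunit of ribonucleotide reductase, was 38.5 times the damage-inducible RNR3. GPD1, a glycerol 3-phosphate dehydrogenase, was at 44.9, 41.9, 47.5, 50.2 and 119.8 TPM and GPD2 at a mean of 47.7 ± 3.90, so GPD1 led in 3 of 5 cultures only. Without culture 5 the ratio of GPD1 to GPD2 was 0.975 instead of 1.28. Copies as alike as TEF1 and TEF2, HXT6 and HXT7, or SSA1 and SSA2 may share reads, so how their reads were divided is uncertain.

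RNAs other than mRNA made up 52.6% ± 3.65 of all TPM, more than the mRNAs in cultures 1 to 4 and less, at 47.0%, in culture 5. SCR1, the RNA of the signal recognition particle (chromosome V, 441987 to 442508), alone held 16.2% ± 2.82, with 158895, 133275, 209438, 158225 and 152587 TPM. The next were box H/ACA and box C/D small nucleolar RNAs. snR37 had 74458 ± 11712 TPM, snR17a, the U3 RNA that guides early cleavage of the rRNA precursor, 62678 ± 15103, snR83 31082 ± 3101, snR35 26029 ± 5851 and snR5 24021 ± 3871. NME1, the RNA of RNase MRP, had 16526 ± 2636 and snR19, the U1 spliceosomal RNA, 14601 ± 1237 TPM. Small nucleolar RNAs together, NME1 among them by the table's own types, held 31.3% ± 3.16 and spliceosomal RNAs 3.47% ± 0.291. These shares lack the features listed at 0, which were 41 of 77 small nucleolar RNAs, 3 of 6 spliceosomal RNAs and all 299 tRNAs. Annotated rRNA features held 0.944% ± 0.429, which in a library depleted of rRNA is not a measure of rRNA in the cell.

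In all, 612 features were at 0 in the 5 naive libraries. All 299 tRNA features were among them, as were 135 mRNA features without a length in the reference. Of the other features with a length in the reference, all 130 of at most 160 nt were at 0, namely 79 mRNAs and 51 other RNAs, and the shortest feature above 0 had 162 nt. Over 160 nt, 48 of 5921 (0.811%) were at 0. The share fell in steps above that length. Of mRNAs over 160 and up to 180 nt, 13 of 29 (44.8%) were at 0. From there to 200 nt it was 2 of 25 (8%), and from 200 to 300 nt 2 of 186 (1.08%). Zeros just above 160 nt are therefore also uncertain. The median level of mRNAs moved with length as well. It was 0.269 TPM over 160 and up to 180 nt, then 9.15 up to 200, 37.6 up to 300 and 12.3 up to 500 nt. Whether levels just above the limit, such as those of YDR524C-B, RPS28A, RPL29, snR35 and snR5, depend on it was not tested. The short set holds genes known to be highly expressed, such as RPL39, RPL41A and RPL41B of the large ribosomal subunit, the a-factor genes MFA1 and MFA2, ATP8 of the mitochondrial genome, the U6 RNA snR6 and 40 of the 77 small nucleolar RNAs. Their zeros therefore say nothing of whether the genes were silent. How the limit arose was not tested.

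**Figure D1:**
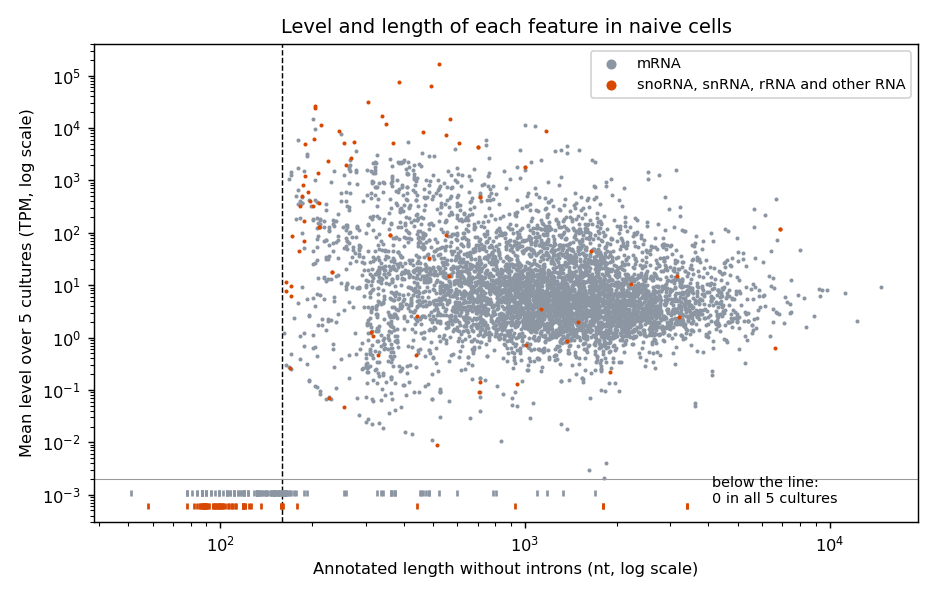
Mean level over the 5 naive cultures (TPM, log scale) against annotated length without introns (nt, log scale) for each feature other than tRNA with a length in the reference, mRNAs in grey and other RNAs in orange. Marks under the horizontal line are features at 0 in all 5 cultures. All 130 features at or left of the dashed line at 160 nt are at 0, against 48 of 5921 to its right.

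Among the longer features at 0 were genes that BY4741 lacks. LEU2, URA3 and MET17, which make leucine, uracil and methionine and are deleted in this background, were at 0 in all 5 cultures, as was YLR302C, which overlaps MET17 by 12 bases. HIS3, of which this background keeps a part, had 20.4, 25.02, 25.9, 34.7 and 51.2 TPM. The intact biosynthetic genes TRP1, LYS2 and ADE2 had 42.9 ± 12.1, 21.2 ± 3.94 and 17.7 ± 4.16 TPM. The 18S and 25S rRNA features, several members of the PAU family (PAU7, PAU8, PAU15, PAU16 and PAU20), the hexose transporter gene HXT16 and TAR1 were also at 0. The libraries were depleted of rRNA, and how reads shared by copies were counted was not examined. These zeros therefore do not show that the features were silent. PAU7, at 168 nt, lies in the range of length where many mRNAs were at 0. HYP2 (474 nt, chromosome V, 85676 to 86149), which encodes the essential translation factor eIF5A, was at 0 as well. Its hypoxic copy ANB1 had 23.3 ± 6.96 TPM. YEL034C-A, named for the opposite strand at HYP2 and without an entry in the reference, had 1027, 1223, 910, 1034 and 1320 TPM. Whether reads were counted by strand is not given in the sources used here, so which of these 2 features the reads came from cannot be told.

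Mating-type genes matched mating type a. STE2, the receptor for alpha-factor, had 253, 232, 266, 304 and 373 TPM, and all 5 values lay far above those of STE3, the receptor for a-factor in alpha cells, at 0.827, 0.864, 0.730, 0.938 and 1.49. AGA2, the a-cell agglutinin subunit, had 315 ± 77.6 TPM, BAR1, the protease that degrades alpha-factor, 122 ± 47.1, STE6, the a-factor exporter, 21.4 ± 3.15 and ASG7 12.8 ± 4.44. The alpha-factor genes MF(ALPHA)1 and MF(ALPHA)2 had 0.402 ± 0.303 and 0.620 ± 0.228 TPM, and the alpha agglutinin SAG1 had 2.13 ± 0.691. HMRA1, whose coding sequence is shared by the a allele of the mating-type locus, had 14.96 ± 2.16 TPM. MATALPHA1 and its silent copy HMLALPHA1 had the same values as each other in every culture, with a mean of 0.0924 TPM. MATALPHA2 and its copy HMLALPHA2 also shared their values, which lay between 1.19 and 2.66 after median-of-ratios scaling.

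**Figure D2:**
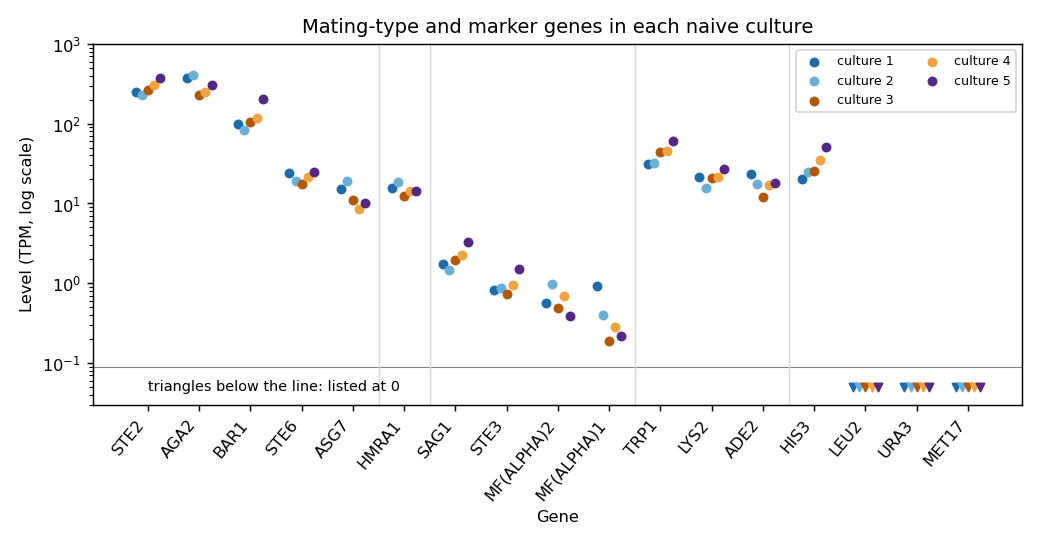
TPM (log scale) of mating-type and marker genes in each of the 5 naive cultures, in blocks from left to right: a-cell genes, HMRA1, alpha-cell genes, intact biosynthetic genes, and the 4 marker genes of BY4741. Triangles under the line are values listed at 0, which LEU2, URA3 and MET17 have in all 5 cultures. STE2 lies between 232 and 373 TPM and STE3 between 0.730 and 1.49.

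Genes of meiosis were low. Among 53 genes of meiosis and sporulation, 30 had a mean below 1 TPM and none reached 10, whereas 13.7% of all mRNAs were below 1 and 35.5% reached 10. The inducer IME1 had 0.883 ± 0.285 TPM, the kinase IME2 0.407 ± 0.168, the recombination nuclease SPO11 0.991 ± 0.366 and the transcription factor NDT80 1.74 ± 0.795. The highest of the group, the splicing factor MER1, had 4.41, 4.62, 8.45, 9.68 and 18.3 TPM, lowest in cultures 1 and 2 and highest in culture 5.

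Of 7 galactose genes, 4 (57.1%) had a mean below 1 TPM. They were the galactokinase GAL1 at 0.566 ± 0.168, GAL7 at 0.907 ± 0.723, the permease GAL2 at 0.430 ± 0.0758 and the inducer GAL3 at 0.793 ± 0.340. GAL80, the repressor of the pathway, was the one at 10 or more, with 21.1 ± 9.43 TPM. Among 25 genes repressed by glucose, 4 (16%) were below 1 TPM, near the share of all mRNAs, and 5 (20%) reached 10 TPM. PCK1 and FBP1 of gluconeogenesis had 2.04 ± 0.905 and 3.66 ± 1.89 TPM, while the invertase SUC2 had 27.3 ± 2.58 and the malate dehydrogenase MDH2 150.1 ± 8.20. Of 19 hexose transporters and sensors, 6 reached 10 TPM (HXT3, HXT7, HXT4, HXT2, HXT1 and HXT6), and 8 (42.1%) were below 1. None of 9 maltose genes and none of 5 flocculin genes reached 10 TPM, where 35.5% of all mRNAs did. For hexose transporters and sensors that share was 31.6%, near the share of all mRNAs.

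Variability was measured as the SD of log2(TPM + 1) over the 5 cultures, for the 2395 features with a mean of at least 10 TPM. Its median was 0.35, its range 0.04 to 1.78, and 34 features (1.42%) had an SD of at least 1. The 5 features just inside the limit had means of 10.002 to 10.013 TPM and the 5 just outside 9.946 to 9.963. Some features reached the limit only through the cultures in which they were high, so those high values are what admitted them. They include SSA4, through culture 5, and RGI1, HXT6, HXT1, RPL7B, COX26, YER066C-A and TMA10, through cultures 1 and 2. Such features are kept in every count by culture below. After scaling the median SD was 0.28, and 14 of the 20 most variable features were again among the first 20. Without culture 5, 11 of the 20 were.

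**Figure D3:**
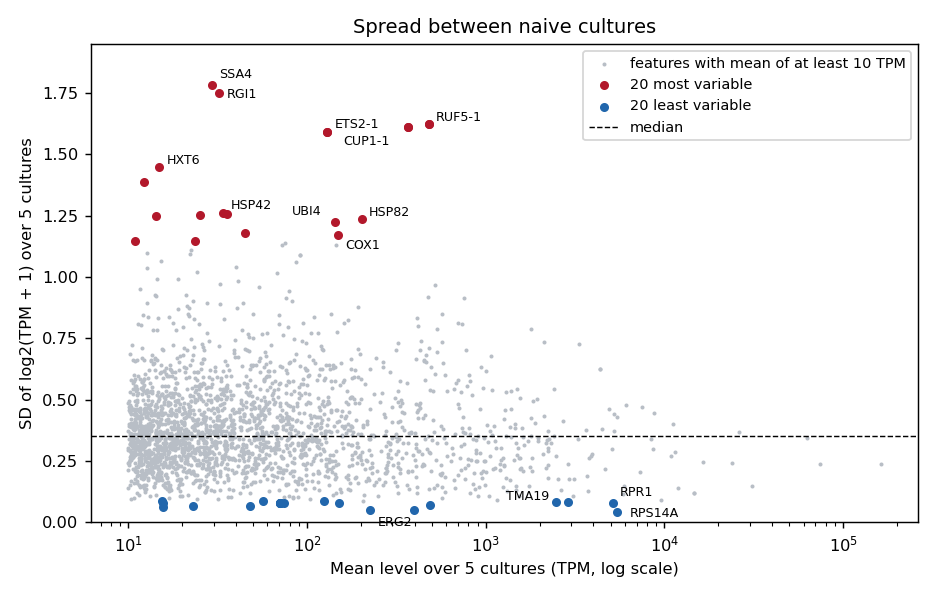
SD of log2(TPM + 1) over the 5 naive cultures against mean TPM (log scale) for the 2395 features with a mean of at least 10 TPM. Red points are the 20 most variable and blue points the 20 least variable features, and the dashed line is the median, 0.35. SSA4 is highest at 1.78 and RPS14A lowest at 0.04.

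The most variable features fell into 3 patterns. In the first, culture 5 was highest. SSA4, a heat-inducible Hsp70 chaperone (chromosome V, 364589 to 366517), had 4.83, 4.47, 12.49, 11.7 and 114.2 TPM. HSP42, a small heat shock protein, had 12.9, 9.86, 22.9, 22.2 and 102.5. HSP82, the inducible Hsp90, had 67.0, 68.2, 167, 162 and 549. In each of these, cultures 1 and 2 were lowest, 3 and 4 lay between, and culture 5 stood above all others. The same order held for HSP78, the mitochondrial disaggregase, at 8.34, 7.83, 20.4, 19.5 and 61.5 TPM, and for UBI4, which encodes polyubiquitin, at 46.8, 51.6, 119, 107 and 394. MNC1 had 15.96, 20.5, 28.7, 25.05 and 134 TPM. COX1, the mitochondrially encoded subunit of cytochrome oxidase, had 54.6, 45.9, 168, 154 and 323 TPM.

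In the second pattern cultures 1 and 2 were highest. RGI1, a gene tied to respiratory growth (chromosome V, 292066 to 292551), had 57.1, 79.6, 10.7, 10.1 and 3.59 TPM. HXT6, a high-affinity glucose transporter (chromosome IV, 1159608 to 1161320), had 28.8, 30.6, 7.08, 5.59 and 2.16. Its near copy HXT7, with which it may share reads, had 613, 642, 449, 358 and 350 TPM after scaling. ETS2-1, a spacer of the rRNA precursor, had 246, 223, 95.4, 71.1 and 15.1 TPM, and ETS2-2, a second copy, had identical values. The ribosomal protein genes RPS9A and RPL7B, each the weaker copy of its pair, had 65.5, 70.7, 9.81, 16.1 and 15.7 and 28.7, 26.6, 3.91, 7.33 and 4.63 TPM. Their stronger copies RPS9B and RPL7A had 996 ± 176 and 844 ± 207. The span of RPL7B overlaps that of the small nucleolar RNA SNR59 by 78 bases on the same strand. COX26, a small subunit of the respiratory supercomplex, had 50.4, 47.5, 11.6, 9.23 and 7.77 TPM. YER066C-A and TMA10 had their highest values, 28.4 and 21.9 TPM, in culture 2.

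In the third pattern cultures 3 and 4 were highest. CUP1-1, the copper metallothionein (chromosome VIII, 212535 to 212720), had 156, 134, 730, 768 and 60.0 TPM, and its copy CUP1-2 had the same values. RUF5-1 and RUF5-2, non-coding RNAs that run across CUP1-1 and CUP1-2 on the opposite strand over 186 bases, had 163, 182, 953, 1014 and 82.7 TPM. Without the use of strand being known, reads of CUP1 and RUF5 cannot be told apart. In laboratory strains CUP1 is a tandem array whose copy number can change, and copy number was not measured here.

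**Figure D4:**
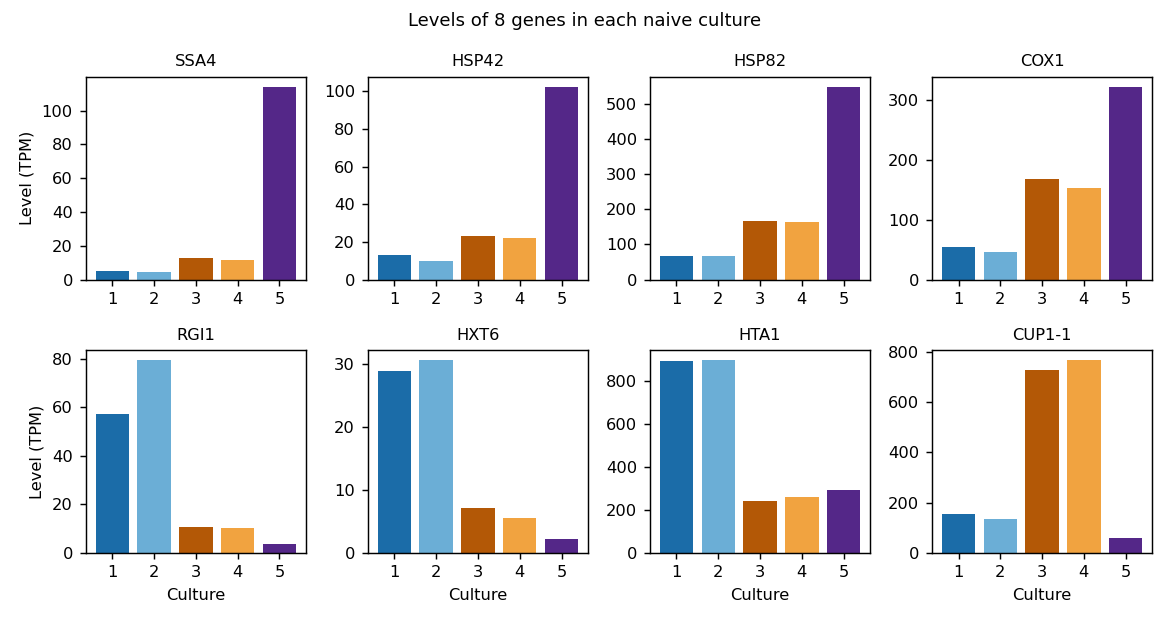
Level in TPM (each axis starts at 0) of 8 genes in each naive culture, 1 bar per culture. SSA4, HSP42, HSP82 and COX1 are highest in culture 5, RGI1, HXT6 and HTA1 in cultures 1 and 2, and CUP1-1 in cultures 3 and 4.

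The chaperone group followed the first pattern as a whole. All 28 chaperone genes that reached 10 TPM on average were highest in culture 5 as deposited, where 64% of all tested features were. After scaling, 25 of 28 were, against 31.1% of all features. SSA4, among these, reached 10 TPM on average only through culture 5. HSP104, the disaggregase, had 54.3, 58.2, 122, 110 and 387 TPM, STI1, a co-chaperone that bridges Hsp70 and Hsp90, had 31.0, 26.6, 49.97, 53.2 and 200.5, and HSP60, the mitochondrial chaperonin, had 115, 94.8, 141, 155 and 455. The abundant SSA2 had 672, 648, 942, 1045 and 2075 TPM. After scaling SSA4 still had 4.92, 4.88, 14.1, 12.2 and 87.9. The members that were not highest in culture 5 after scaling included EGD1, a subunit of the nascent chain complex, with 1045, 1106, 879, 835 and 1154 TPM as deposited. Of 36 general stress genes, 30 were highest in culture 5 after scaling, among them HSP12 with 337, 477, 305, 213 and 828 TPM. That list and the chaperones share HSP26, HSP42, HSP78, HSP104 and SSA4. Of 32 proteasome subunits, 30 were, and RPN2 had 42.4, 30.1, 47.5, 48.7 and 129 TPM. None of 134 ribosomal protein genes, 27 ribosome assembly factors, 10 histone genes or 6 hexose transporters was highest there after scaling. As deposited, 14 of the ribosomal protein genes and 4 of the assembly factors were. The part of growth stage, handling and length of the transcript in these differences was not tested.

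The sequence bound by Hsf1, searched on both strands as TTC, GAA and TTC spaced 2 bases apart, or its complement, in the 300 bases before the coding start, was found in 52 of 6001 promoters (0.867%) and in 11 of 29 chaperone promoters (37.9%). Hsf1 drives chaperone genes, as stated above, so the share among chaperones describes their promoters and says nothing of the cultures. The stretches below are shown because their genes carry the first pattern. Capitals mark 1 match in each, written on the coding strand, and coordinates are R64. In HSP42 and HSP78 another match overlaps the marked one, and its last bases are in lower case. SSA4 and HSP82 held no match to these letters in the window.
HSP42 (chrIV:806363-806405, plus strand): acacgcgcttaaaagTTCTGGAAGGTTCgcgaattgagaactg
HSP78 (chrIV:974463-974505, minus strand): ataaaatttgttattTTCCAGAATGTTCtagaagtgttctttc
STI1 (chrXV:380796-380838, plus strand): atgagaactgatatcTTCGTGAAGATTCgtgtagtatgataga
HSP104 (chrXII:88323-88353, plus strand): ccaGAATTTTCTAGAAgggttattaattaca
SSA2 (chrXII:97691-97733, minus strand): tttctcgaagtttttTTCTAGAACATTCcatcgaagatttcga
HSP60 (chrXII:665185-665227, minus strand): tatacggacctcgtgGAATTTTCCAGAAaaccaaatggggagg

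The stress response element of Msn2 and Msn4 has the core AGGGG. It was found on either strand in 22.2% of all promoters and in 32 of 46 general stress promoters (69.6%). Msn2 and Msn4 drive general stress genes, as stated above, so the latter share says nothing of the cultures. The element was found in 43 of the 100 most against 20 of the 100 least variable mRNAs. The 100 most variable mRNAs after scaling held it in 31 promoters and the 100 least variable in 22. Among the 100 most variable mRNAs as deposited, it stood in 31 of 56 promoters of genes highest in culture 5 (55.4%), in 7 of 26 of those highest in culture 1 (26.9%) and in 5 of 16 of those highest in culture 2 (31.3%). The stretches are from genes of the larger share, SSA4 and UBI4, and of the smaller ones, RGI1 and COX26. Capitals mark the core in the stretches below.
SSA4 (chrV:364395-364429, plus strand): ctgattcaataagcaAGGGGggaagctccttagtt
UBI4 (chrXII:65440-65474, minus strand): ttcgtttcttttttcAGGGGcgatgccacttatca
RGI1 (chrV:291817-291851, plus strand): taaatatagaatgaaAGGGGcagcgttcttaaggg
COX26 (chrIV:690779-690813, plus strand): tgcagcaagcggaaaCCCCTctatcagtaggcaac

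The TATA box, searched as TATAAA, was found in 48.2% of all promoters, in 64 of the 100 most variable and in 44 of the 100 least variable mRNAs, and after scaling in 56 and 51. The binding letters of Cbf1 and Pho4 (CACGTG), of GATA factors (GATAAG) and of Ste12 (TGAAACA) stood in 3.57%, 14.7% and 7.199% of all promoters, in 2, 20 and 6 of the 100 most variable and in 3, 17 and 5 of the 100 least variable. After scaling they stood in 3, 15 and 9 of the most variable and in 4, 7 and 10 of the least variable. The proteasome element bound by Rpn4, GGTGGCAAA, was found in 73 of 6001 promoters (1.22%) and in 27 of 33 proteasome promoters (81.8%). The 33 include the assembly gene RPN14. The element is named for proteasome genes, so this share describes their promoters and says nothing of the cultures. It is shown for 3 subunits, RPN11 and RPT1 of the regulatory particle and PRE9 of the core, with the element in capitals.
RPN11 (chrVI:153254-153292, plus strand): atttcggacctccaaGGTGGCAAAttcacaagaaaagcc
RPT1 (chrXI:174043-174081, plus strand): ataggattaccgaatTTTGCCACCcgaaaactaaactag
PRE9 (chrVII:761218-761256, plus strand): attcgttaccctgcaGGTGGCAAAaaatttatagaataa

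Several groups followed the second pattern, though not every group related to growth did. All 6 hexose transporters with a mean of at least 10 TPM were higher in both culture 1 and culture 2 than in any other culture after scaling. Of all features, 29.7% were. HXT6 and HXT1 reached that mean only through cultures 1 and 2, so part of this count was fixed by the limit. HXT6 and HXT7 may also share reads. HXT3, a low-affinity transporter, had 1312, 990, 535, 524 and 319 TPM and HXT1 51.6, 30.2, 8.39, 10.3 and 10.4. HXT2 had 144, 108, 29.0, 23.2 and 74.96. All 10 histone genes had the same order after scaling. HTA1, which encodes histone H2A, had 893, 897, 242, 261 and 291 TPM, and HHF2, which encodes histone H4, had 807, 926, 338, 407 and 417. The same order held for 24 of 27 ribosome assembly factors, 99 of 134 cytosolic ribosomal protein genes and 6 of 10 genes of mitosis and mitotic exit. It held for only 7 of 28 translation factors, 10 of 46 genes of amino acid biosynthesis and 0 of 21 genes of glycolysis and fermentation. Of those 21, 10 were highest in cultures 3 and 4. In RNA of a whole culture, fewer cells at a stage of the cell cycle and less RNA per cell cannot be told apart. DBP2, an RNA helicase, had 150, 139, 48.5, 56.3 and 72.3 TPM and PIR1, a cell wall protein made around the end of mitosis, had 145, 111, 33.4, 40.2 and 52.6. The ribosomal protein genes are short, and the shortest mRNAs were high in culture 2 and low in culture 5 after scaling, as given above. Other metabolic genes with high spread were GLN1, glutamine synthetase, at 857, 733, 263, 333 and 201 TPM, OLE1, the fatty acid desaturase, at 769, 618, 426, 398 and 211, and the phosphate transporter PHO84 at 542, 439, 286, 340 and 195.

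**Figure D5:**
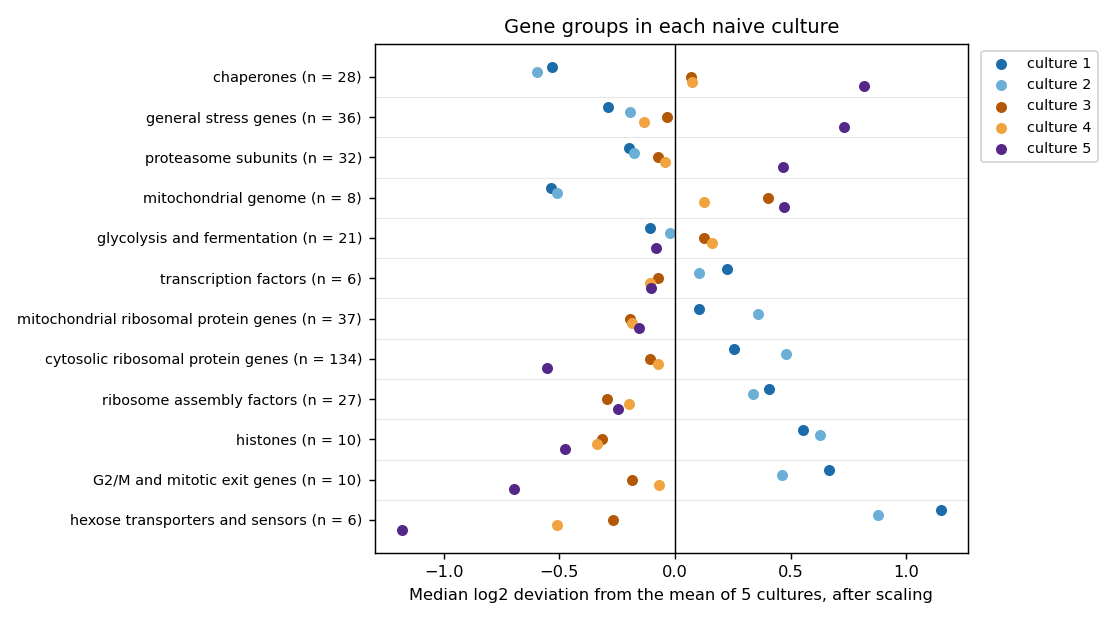
Median log2 deviation from the mean of the 5 cultures, after median-of-ratios scaling, for 12 gene groups (n counts the genes that reached 10 TPM on average), 1 point per culture. Chaperones lie at -0.53 and -0.60 in cultures 1 and 2 and at 0.82 in culture 5, and hexose transporters at 1.15 and 0.88 in cultures 1 and 2 and at -1.18 in culture 5.

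The mitochondrially encoded mRNAs COX1, COX2, COX3, COB and ATP6 were lowest in cultures 1 and 2. ATP6, a subunit of the ATP synthase, had 28.0, 19.3, 60.7, 48.2 and 112 TPM and COB, cytochrome b, 83.0, 66.6, 130, 106 and 197. OLI1, which encodes subunit 9 of the ATP synthase, differed least, at 954, 789, 894, 1007 and 1095. COX1 overlaps its intron-encoded reading frames in the annotation, so its level depends on how shared reads were treated. Nuclear genes of the respiratory chain had a median SD of 0.36, near that of all features.

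The least variable features as deposited were RPS14A with 5251, 5376, 5376, 5690 and 5444 TPM (SD 0.04 on the log2 scale), ERG2, a sterol isomerase, with 223, 228, 222, 238 and 218, and COA3, an assembly factor of cytochrome oxidase, with 394, 418, 389, 395 and 381. The group also held FCY1, HNT1, MDH2, ARO4, TMA19, RPL37B, SUS1, MDE1, MRPL50, HUR1, YDR491C, YKL033W-A, the RNase P RNA RPR1 at 5124 ± 279 TPM, and the 4 copies of ASP3, which had identical values. None of these 20 remained among the 20 least variable after scaling. There the lowest SDs belonged to IRC21 (0.03), YDL012C (0.05), THO1 (0.05), ATP11 (0.05) and BCY1 (0.05), the last being the regulatory subunit of protein kinase A. BCY1 had 35.7, 34.4, 33.4, 35.2 and 52.0 TPM as deposited, so its steadiness holds only relative to the other genes.

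Genes often used as references differed in their spread. ACT1, actin, had 1522, 1583, 2544, 2657 and 3699 TPM, with an SD of 0.54 as deposited and 0.44 after scaling. TAF10 had an SD of 0.45 and 0.44, PDA1 of 0.50 and 0.38, ALG9 of 0.43 and 0.32, and UBC6 of 0.31 and 0.18. Over all tested features the medians were 0.35 and 0.28, so ACT1, TAF10, PDA1 and ALG9 lay above both and UBC6 below both. TFC1, with a mean of 2.07 TPM, lay under the limit of 10 TPM. Among abundant genes of glycolysis CDC19 and ENO2 had scaled SDs of 0.08 and 0.12, from 0.27 and 0.26 as deposited, while GCN4, the activator of amino acid synthesis, had 0.09 as deposited and 0.17 after scaling.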

How the data were processed

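Total RNA of the 5 naive cultures was sequenced after RiboZero treatment, per the labels' protocols. The authors deposited 1 table of TPM values, which sum to between 999963 and 999979 in each library. Bowtie2, HTSeq and build R64 are named in the submitters' processing notes. No source used here gives tool versions, the release of the annotation or whether strand was used. Levels of genes that overlap, run antisense or have a near-identical copy are uncertain for that reason, and 44 features above 0 in all libraries share their 5 values with another feature. Depth is unknown, and p-values are not given because only 1 group is described. The cultures came from independent colonies, per the labels' protocols.

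From the TPM values, means, SDs and the SD of log2(TPM + 1) were computed with pandas 2.3.3 and numpy 2.4.6 in Python 3.11.15. Median-of-ratios scaling used features above 0 in every library with a mean of at least 10 TPM. Lengths, places and promoters (300 bases before the coding start) came from RefSeq R64, which matched 5914 of 6596 mRNAs. The table's 4 emptied lines were left out. The scripts for scaling, ranking and outlying values were tested on simulated data.

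The members and the 46 gene lists were chosen with earlier results of these data known. Named were the 15 most abundant mRNAs, the 8 most abundant other RNAs, the 20 most and 20 least variable features, marker and paralog genes, and for lists the highest, the lowest and the most variable member. Further list members were named after their values were seen, as were the Hsf1 and Rpn4 motifs and the order of the cultures. CRS5, ADE5,7, IMD1, MATA1, FLO8 and TLC1 were not matched in the table.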

Additional observations from a re-analysis of the deposited data

Results flagged for a closer look

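Among 242 named features, 16 (6.61%) had a culture far from the other 4, measured as the gap to the nearest value over the whole range of log2(TPM + 1) and set against Dixon's limit for 5 samples, 0.71. Chance alone gives about 1 in 20. In 10 of the 16 the outlying value was the highest and came from culture 5. After median-of-ratios scaling 6 of the 16 were still past the limit with the same culture at the same end. HUR1 was past it as well, but then with culture 5 lowest, at 36.3.

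In culture 5, GPD1 stood out at 119.8 TPM, the iron-siderophore transporter gene SIT1 at 47.6, the cell fusion gene FUS1 at 16.8 and the ornithine carbamoyltransferase gene ARG3 at 1.64, and these 4 were past the limit after scaling as well. FUS1 had 7.45, 6.80, 6.99 and 7.52 TPM in the other cultures. The proteasome subunit gene PRE6 at 133 TPM, the proteasome assembly gene RPN14 at 5.73, the citrate synthase gene CIT1 at 126.6, COX5A at 110.7, MNC1 at 134 and the Hsp70 gene SSA3 at 12.3 were past it only as deposited.

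In the other cultures the outlying values were those of HUR1 at 52.4 TPM in culture 4, MRPL50 at 17.3 in culture 2, WHI5 at 1.89 and PMA2 at 1.09 in culture 1, and the shared value of MATALPHA1 and HMLALPHA1 at 0.258 in culture 3. HUR1 and MRPL50 were among the 20 least variable features as deposited, so their gaps are large only against a small range. The values of WHI5, PMA2, MATALPHA1 and HMLALPHA1 lie near 0. HUR1 overlaps PMR1 on the opposite strand by 181 bases. Over all 2395 features with a mean of at least 10 TPM, 184 (7.68%) were past the limit as deposited, 163 of them high in culture 5, and 125 (5.22%) after scaling, 28 of them high and 39 low in culture 5.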

How the results depend on the processing

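Of the 15 most abundant mRNAs, at least 13 stayed among the first 15 under every alternative run, and the 8 most abundant other RNAs stayed when any replicate was left out. With nuclear mRNAs scaled to the same total, 3595 features reached 10 TPM in place of 2395. Counting only features other than tRNA with a known length over 160 nt, 48 were at 0 in place of 612, since this leaves out tRNAs, shorter features and 135 mRNAs with no length. Of the 20 least variable features, 12 were kept with a pseudocount of 10, 8 with a limit of 1 TPM, 0 with no filter, 1 with nuclear mRNA scaling, 0 with median-of-ratios scaling and 2 by median absolute deviation, and 2 to 13 when a replicate was left out. Of the 20 most variable, 11 to 19 were kept when a replicate was left out, the fewest without culture 5. Features with an SD of at least 1 numbered 13 with a pseudocount of 10, and 14 and 6 were at or above 1 by median absolute deviation and by SD over mean. The median spread was 0.18 by median absolute deviation. The least alike pair was cultures 1 and 5, at 0.633, when the limit was 1 TPM. AGGGG stood in 31 of the most variable mRNAs above 100 TPM and in 31 after scaling, in place of 43. GPD1 over GPD2 was 0.964 by medians, and 0.975 to 1.39 with 1 replicate left out, the lowest without culture 5. The cause of these changes was not tested. No paired analysis was possible because 1 group is described, and the numbers it shares with the other group were not used. Levels near 0 are limited by a depth that is unknown. Scaling alternatives for motifs, paralogs and the culture of the highest level, and the 160 nt limit, were chosen after seeing the data.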
